A study of Mus musculus with 12 samples.

Results

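The genes described here are 45 mouse genes of drug metabolism and of the NRF2 antioxidant response, listed by name for their known roles. They comprise 5 receptors and regulators, 11 cytochromes P450 and their reductase, 6 carboxylesterases, 4 enzymes that handle epoxides, alcohols and aldehydes, 3 glucuronidating or sulfating enzymes, 7 glutathione transferases, 5 quinone, glutathione and thioredoxin enzymes and 4 efflux pumps. A probe was matched for 44 of the 45 (none for Gsta1), and 43 were bright enough to be tested among 26107 features. The exception was Cyp1a1, whose levels are given below without a test.

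The samples were whole duodenum of 12 male mice, 7 weeks old, each on 1 one-colour (Cy3) Agilent array. There were 3 IAP-knockout (Akp3-/-) mice given IIAEK, 3 IAP-knockout mice given vehicle, 3 wild-type mice given IIAEK and 3 wild-type mice given vehicle. IIAEK is a pentapeptide that the labels describe as cholesterol-lowering. It was given orally, 600 mg per kg daily, in carboxymethylcellulose sodium salt at 5 g/L, and vehicle mice got that carrier alone. Dosing lasted 14 days by the titles and the design, although the source labels of the IIAEK samples give weeks, and tissue was taken into RNAlater following an 8 h fast. The deleted gene, Akp3, makes an intestinal alkaline phosphatase (IAP) of the duodenal brush border. How the knockout was made and its strain background are not given in the sources used here. The labels give 3 replicates in a group and do not say more about litters or cages, so the p-values measure the spread between these samples.

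Enterocytes meet food-borne chemicals before the liver does. Cytochromes P450 and carboxylesterases oxidise or hydrolyse such compounds, transferases then attach glucuronate, sulfate or glutathione, and ABC pumps export the products. The nuclear receptors PXR (Nr1i2) and CAR (Nr1i3) and the aryl hydrocarbon receptor (Ahr) switch on many of these genes when they bind foreign ligands. NRF2 (Nfe2l2) is held down by KEAP1 and, once released by oxidants or electrophiles, drives genes for glutathione synthesis and quinone reduction through antioxidant response elements.

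Levels below are log2 processed intensities minus the 75th percentile of the same array; 0 therefore marks that percentile, and levels of different genes are not compared, since probes differ in brightness. Fold changes are log2, IIAEK minus vehicle or knockout minus wild type, and "adjusted p" is limma's p after Benjamini-Hochberg adjustment over 26107 features, with 0.05 as the threshold. Groups are abbreviated KO IIAEK, KO vehicle, WT IIAEK and WT vehicle, and their values are given in replicate order. Akp3 itself separated the genotypes, at -4.64, -4.42 and -4.90 in KO IIAEK and -4.01, -3.80 and -4.23 in KO vehicle, against 1.29, 1.05 and 2.72 in WT IIAEK and 2.27, 2.04 and 1.70 in WT vehicle. The 14 villus enterocyte markers averaged 6.20 to 6.96 on every array, so the labelled tissue's main cell type was present on all of them.

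The arrays differed in ways that the groups do not explain. They lay on 2 slides, each scanned in 1 run: slide 1 held KO IIAEK 1 and 2, KO vehicle 1, WT IIAEK 1 and 2 and WT vehicle 1 and 2, and slide 2 held the other 5 arrays. Of 10 markers of stomach and Brunner's gland mucous cells, 9 were measured, and their mean ranged from -2.68 to 5.16 in KO IIAEK, -2.24 to 3.86 in KO vehicle, -2.09 to 5.66 in WT IIAEK and 3.94 to 4.47 in WT vehicle. That mean was above 0 on KO IIAEK 3, KO vehicle 1, WT IIAEK 3 and all 3 WT vehicle arrays. Gkn1 and Psca were well above background on those 6 arrays alone, whereas Gkn3, Tff1, Tff2 and Anxa10 were on all 12. In whole tissue, fewer cells of a type and less RNA per cell cannot be told apart.

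Promoters are shown for 5 members because they hold letter matches to short motifs that regulators of the group are known to bind. Whether the matches shown are sites in use was not tested. RefSeq windows of assembly GRCm38.p6, 250 bases before to 50 after the annotated start, were found for 38 of the 45 members (46 windows). Capitals mark the motif found, and a reverse-strand match is capitalised as it reads on the printed strand.
Gstp1 (chr19:4037863-4038162, minus strand): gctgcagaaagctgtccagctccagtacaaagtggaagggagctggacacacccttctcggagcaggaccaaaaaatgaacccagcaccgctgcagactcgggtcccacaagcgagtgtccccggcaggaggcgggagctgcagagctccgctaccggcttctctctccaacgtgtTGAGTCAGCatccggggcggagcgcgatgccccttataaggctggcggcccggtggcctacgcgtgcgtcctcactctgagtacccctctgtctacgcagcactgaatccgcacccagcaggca
Srxn1 (chr2:152105274-152105573, plus strand): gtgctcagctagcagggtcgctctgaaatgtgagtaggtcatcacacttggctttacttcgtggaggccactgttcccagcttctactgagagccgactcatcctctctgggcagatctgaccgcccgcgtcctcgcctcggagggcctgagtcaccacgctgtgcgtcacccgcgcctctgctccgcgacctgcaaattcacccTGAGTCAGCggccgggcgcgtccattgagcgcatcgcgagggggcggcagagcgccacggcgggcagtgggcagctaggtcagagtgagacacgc
Cyp2c65 (chr19:39060756-39061055, plus strand): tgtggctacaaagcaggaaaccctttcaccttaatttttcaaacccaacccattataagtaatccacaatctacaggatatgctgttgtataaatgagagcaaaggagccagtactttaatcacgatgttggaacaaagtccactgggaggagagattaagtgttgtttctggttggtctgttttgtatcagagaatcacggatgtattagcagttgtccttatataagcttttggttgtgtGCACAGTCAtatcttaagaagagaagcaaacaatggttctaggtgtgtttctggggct
Cyp2c66 (chr19:39113648-39113947, plus strand): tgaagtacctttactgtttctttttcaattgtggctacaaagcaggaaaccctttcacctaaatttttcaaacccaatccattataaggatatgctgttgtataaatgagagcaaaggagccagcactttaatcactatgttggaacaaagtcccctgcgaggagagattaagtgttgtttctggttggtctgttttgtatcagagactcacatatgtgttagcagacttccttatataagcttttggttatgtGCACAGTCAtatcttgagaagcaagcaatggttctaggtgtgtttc
Cyp1a1 (chr9:57697363-57697662, plus strand): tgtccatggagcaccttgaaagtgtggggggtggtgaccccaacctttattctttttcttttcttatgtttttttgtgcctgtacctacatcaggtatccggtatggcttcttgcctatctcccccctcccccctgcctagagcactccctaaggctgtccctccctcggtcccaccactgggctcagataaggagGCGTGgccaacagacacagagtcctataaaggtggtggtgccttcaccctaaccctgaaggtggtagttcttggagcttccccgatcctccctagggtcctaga

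Gstp1 encodes a cytosolic glutathione transferase, and Srxn1 encodes sulfiredoxin, which repairs over-oxidised peroxiredoxins. In both, capitals mark TGANTCAGC, a form of the antioxidant response element that contains the AP-1 motif TGANTCA whole. It began at base -74 in Gstp1 and at base -45 in Srxn1, counted from the start. Searched on both strands, it lay in 1.19% of all 32851 windows and in 2 of the 46 member windows. Both capitalised sites read TGAGTCAGC, which does not match the core TGACNNNGC of the element, searched separately. The core TGACNNNGC lay in 12.4% of all windows and in 19.6% of member windows (9 of 46), those of Abcb1a, Abcc2, Cyp2c65, Cyp2c66, Gclm, Mgst1, Nfe2l2, Srxn1 and Txnrd1. In Srxn1 its match was another site, at base 29.

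The Cyp2c65 and Cyp2c66 windows have 256 identical bases in 329 aligned columns (77.8%), and both hold that core on the reverse strand, as GCACAGTCA, starting at base -8 in Cyp2c65 and at base 5 in Cyp2c66. In the Cyp1a1 window capitals mark GCGTG, the core bound by the aryl hydrocarbon receptor, at base -54. This core lay in 32.4% of all windows and in 39.1% of member windows (18 of 46), searched on both strands. These letters are matches in a window, and no binding was measured.

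In the duodenum all 43 tested members were well above background on all 12 arrays. Their spread was wide, with a median SD over the 12 arrays of 0.40 against 0.29 for all features, and 9 members lay among the 10% of features with the largest SD.

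**Figure D1:**
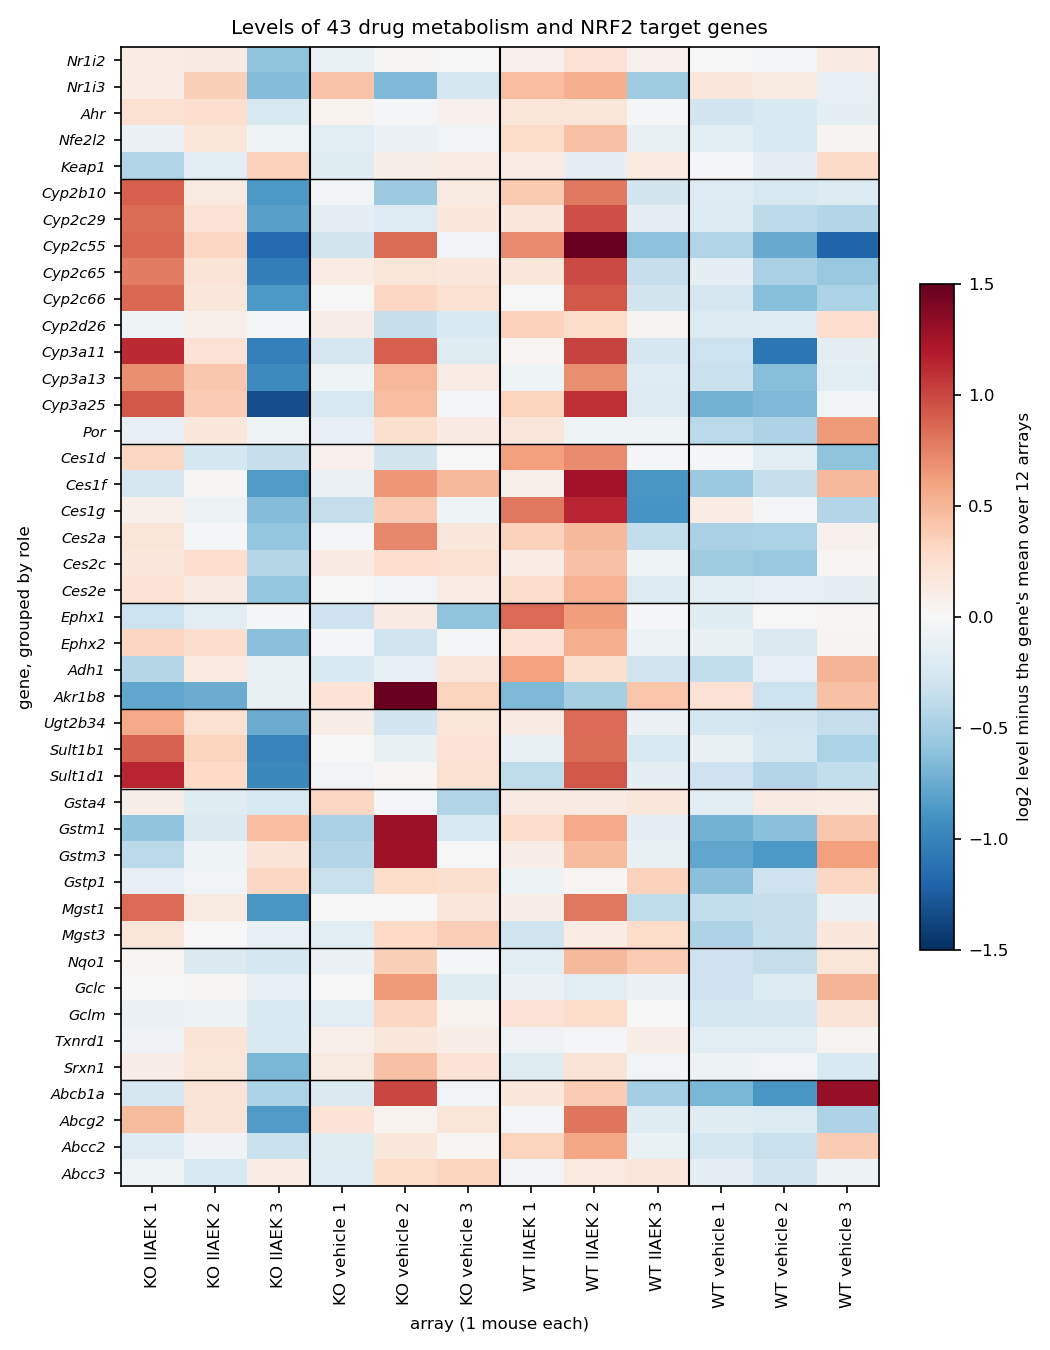
Level of each of 43 genes on each of 12 arrays, as log2 level minus the gene's mean over the arrays; genes run down the page grouped by role and arrays run across by group, with the colour scale ending at -1.5 and 1.5. KO IIAEK 3 is the lowest array for 18 genes and WT IIAEK 2 the highest for 18.

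The plot of levels by array shows wide differences between arrays of the same group. WT IIAEK 2 was the highest of the 12 arrays for 18 of 43 members, against 12.6% of all features. KO IIAEK 3 was the lowest for 18 members, against 25.0% of all features. The mean of the 43 genes was 4.39, 4.27 and 3.73 in KO IIAEK, 4.12, 4.44 and 4.25 in KO vehicle, 4.34, 4.72 and 4.06 in WT IIAEK and 3.92, 3.85 and 4.20 in WT vehicle.

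IIAEK was first set against vehicle in wild-type mice. The members lay higher under IIAEK, with a median log2 fold change of 0.35 and 41 of 43 above 0, where all features had a median of 0.035 and 56.3% above 0. So did 13 of 14 villus enterocyte markers (median 0.20). In pathway lists described below, 36 of 40 other phase 1 enzymes (median 0.35) and 25 of 29 other phase 2 enzymes (median 0.28) were above 0. Of other receptors and partners, 14 of 22 were (median 0.041). None of the 43 passed the threshold and none of all features did (percent called 0, limma). At an unadjusted p under 0.05 there were 5 members, all higher (Ces1d, Cyp2c55, Ces2c, Ephx1 and Ahr), beside 3.14% of all features. The 3 IIAEK mice lay above the 3 vehicle mice for 6 members (14.0%) and below them for none, beside 5.58% of all features above and 3.69% below, namely Abcc3, Abcg2, Ahr, Cyp2c29, Gsta4 and Ugt2b34. Within slide 1 the median was 0.64 with 42 above 0, whereas within slide 2, with 1 array a group, it was -0.071 with 17 above 0. The WT vehicle array of slide 2 was replicate 3, which had the highest hepatocyte marker mean (0.35, against -1.96 to -1.12 on the others). Its part in the slide 2 values was not tested. Stomach markers were high in 1 of the 3 IIAEK mice and in all 3 vehicle mice; with stomach and pancreas marker scores as covariates the members' median was 0.11. All 14 exocrine pancreas markers were higher under IIAEK (median 2.14); their mean was 2.62 on WT vehicle 1, against 7.58 to 9.50 on the other 11 arrays. Without that array the members' median was 0.31. The part of the stomach markers in these values was not tested.

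In knockout mice the members lay slightly lower under IIAEK, with a median of -0.099 and 11 of 43 above 0, beside a median of -0.003 and 49.2% above 0 for all features. None was called, and none of all features was (percent called 0, limma). Akr1b8 was the only member at an unadjusted p under 0.05, beside 1.91% of all features, and also the only one whose groups did not overlap, beside 1.98% of all features lying above and 2.7% below. The median turned to 0.019 without KO IIAEK 3, the array with the highest smooth muscle markers (4.46, against 2.62 to 3.76 on the others) and the lowest enterocyte markers (6.20). Within slide 1 it was 0.18 with 34 above 0, and within slide 2 it was -0.62 with 5 above 0.

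The IIAEK effect in knockout mice minus that in wild type had a median of -0.48, with 1 of 43 members (Nr1i3) above 0; over all features the median was -0.042 with 44.1% above 0. No member and no other feature was called (percent called 0, limma), and 1 member, Ces2c, had an unadjusted p under 0.05, beside 1.52% of all features. The median was -0.43 within slide 1, -0.55 within slide 2 and -0.25 with marker scores as covariates, and lay between -0.63 and -0.29 when 1 array was left out. The sign was not particular to the members: all 14 villus enterocyte markers were below 0 too (median -0.25). So were 28 of 29 other phase 2 enzymes (median -0.256) and 33 of 40 other phase 1 enzymes (median -0.335), from pathway lists described below. All 9 stomach markers were above 0 in this difference (median 3.48) and all 14 exocrine pancreas markers below 0 (median -2.09), and the members' median was -0.45 without WT vehicle 1. Averaged over genotypes, the IIAEK effect had a median of 0.13 with 34 above 0, none called (percent called 0), and 1 member (Akr1b8, lower) at an unadjusted p under 0.05, beside 2.94% of all features. That median was 0.41 within slide 1 and -0.37 within slide 2.

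Knockout was then set against wild type under vehicle. The members lay higher in knockout mice, with a median of 0.29 and 35 of 43 above 0, beside 0.028 and 54.6% for all features. None was called, where 0.00766% of all features were, and 1 member (Ces2c, higher) had an unadjusted p under 0.05, beside 3.85% of all features. The 3 knockout mice lay above the 3 wild-type mice for 13 members (30.2%) and below them for none, beside 8.5% of all features above and 5.87% below. These were Ahr, the P450s Cyp2c29, Cyp2c55, Cyp2c65, Cyp2c66 and Cyp3a13, and Ces2c, Ces2e, Mgst1, Sult1d1, Srxn1, Txnrd1 and Abcg2. Another probe was tested for Cyp2c55, Mgst1, Sult1d1 and Txnrd1. That of Cyp2c55 kept the groups apart, whereas those of Sult1d1 and Txnrd1 overlapped and that of Mgst1 touched at 4.83. The Txnrd1 difference was 0.021 on its other probe, against 0.21. Stomach markers were high in 1 of the 3 knockout mice and in all 3 wild-type mice, and with marker scores as covariates the members' median was -0.029 with 20 above 0. All 14 exocrine pancreas markers (median 2.14, WT vehicle 1 being the low array) and all 8 T cell markers (median 0.48) were also higher in knockout mice. Higher too were 10 of 14 villus enterocyte markers (median 0.092), 27 of 40 other phase 1 enzymes (median 0.156) and 24 of 29 other phase 2 enzymes (median 0.17). Without WT vehicle 1 the members' median was 0.27, and the part of the stomach and T cell markers was not tested. The median was 0.25 within slide 1 and 0.16 within slide 2.

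Under IIAEK the direction was the other way: the knockout-minus-wild-type median was -0.24 with 2 of 43 above 0, beside -0.011 and 47.5% for all features. None was called, where 0.00766% of all features were. Ephx1 alone had an unadjusted p under 0.05 (lower), beside 1.31% of all features, and the groups of Gclm and Gsta4 did not overlap (4.65%, both below, beside 1.65% of all features lying above and 2.19% below). Also below 0 were 13 of 14 villus enterocyte markers (median -0.127), 33 of 40 other phase 1 enzymes (median -0.194) and 23 of 29 other phase 2 enzymes (median -0.157). Without KO IIAEK 3 the members' median was 0.006. Averaged over treatments the knockout effect had a median of 0.075 with 26 above 0, and Ephx1 was again the only member at an unadjusted p under 0.05, beside 3.03% of all features; none was called, where 0.0192% of all features were. These comparisons share groups, so that their values are given side by side and are not independent.

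**Figure D2:**
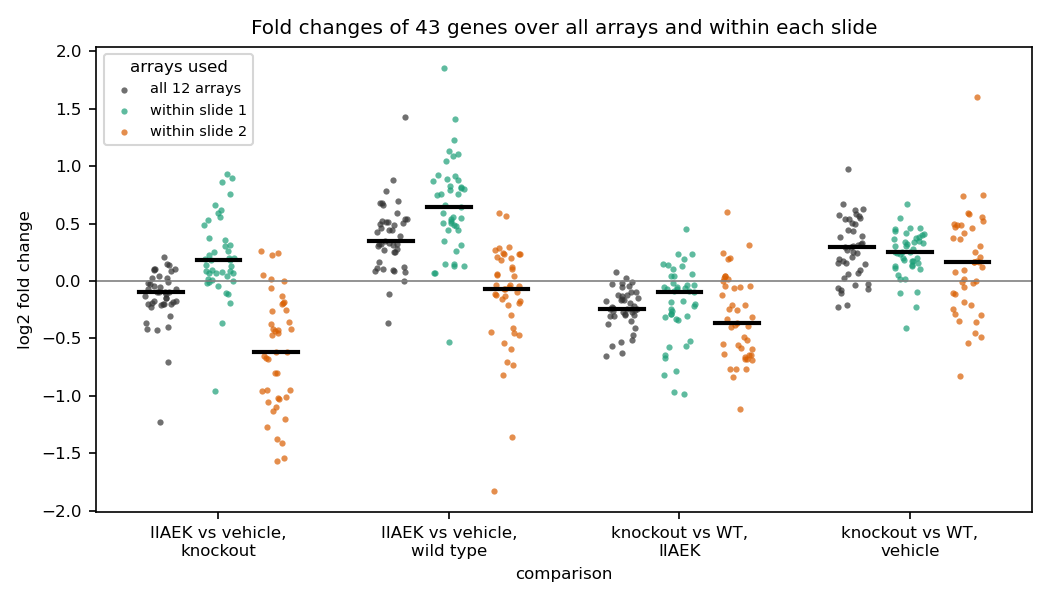
Log2 fold change of each of 43 genes in 4 comparisons, fitted over all 12 arrays, within slide 1 and within slide 2; points are genes and black bars are medians. IIAEK against vehicle in wild type has a median of 0.35 over all arrays, 0.64 within slide 1 and -0.071 within slide 2.

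The plot of fold changes by slide shows that the median under IIAEK had opposite signs on the slides in both genotypes. Slide 2 gave 1 array for every group but KO vehicle, which gave a pair, so that values within it rest on few arrays. The mean of the 43 genes on the 6 arrays with stomach markers above 0 was 3.73 to 4.20, and on the other 6 it was 4.25 to 4.72, without overlap. On the same arrays the 40 other phase 1 enzymes averaged 2.02 to 2.46 and 2.37 to 2.85. The villus enterocyte markers averaged 6.20 to 6.85 and 6.67 to 6.96. Both lists overlapped but shared the direction, which was therefore not particular to the members. What part slide and tissue content have in the group values was not tested.

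**Figure D3:**
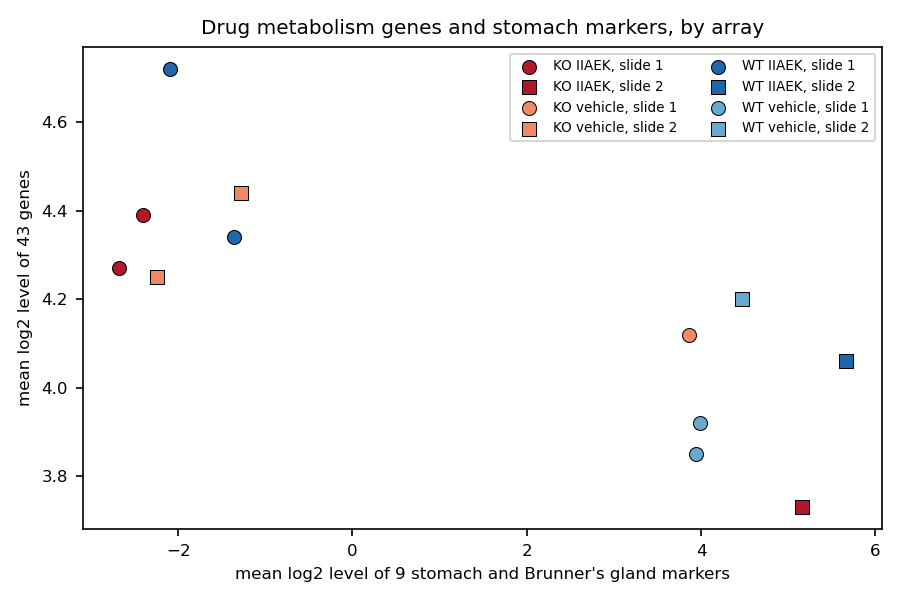
Mean log2 level of 43 genes (vertical axis) against the mean log2 level of 9 stomach and Brunner's gland markers (horizontal axis), 1 point per array, coloured by group and shaped by slide. The 6 arrays at 3.86 to 5.66 on the horizontal axis lie at 3.73 to 4.20 on the vertical axis, below the other 6.

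The plot of these genes against stomach markers places the 3 WT vehicle arrays together on the right, while each other group had 1 array there. The arrays of slide 2 lay on both sides.

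Among the regulators, Ahr, the receptor for aromatic hydrocarbons, stood at 1.53, 1.56 and 1.06 in KO IIAEK, 1.36, 1.28 and 1.37 in KO vehicle, 1.48, 1.49 and 1.27 in WT IIAEK and 1.02, 1.07 and 1.16 in WT vehicle. WT vehicle was low throughout, and neither WT IIAEK nor KO vehicle overlapped it. The log2 fold change was 0.33 (SE 0.15) for IIAEK in wild type and 0.25 (SE 0.15) for knockout under vehicle, with adjusted p 0.999 and 0.993 from limma. Nfe2l2, which encodes NRF2, was at 4.15, 4.43 and 4.18 in KO IIAEK, 4.09, 4.16 and 4.20 in KO vehicle, 4.52, 4.68 and 4.13 in WT IIAEK and 4.07, 4.02 and 4.29 in WT vehicle. Its groups overlapped, and the averaged IIAEK effect was 0.21 (SE 0.11, adjusted p 1, limma).

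Keap1, whose product targets NRF2 for degradation, read 1.56, 1.86 and 2.36 in KO IIAEK, 1.83, 2.10 and 2.13 in KO vehicle, 2.13, 1.87 and 2.16 in WT IIAEK and 1.99, 1.88 and 2.30 in WT vehicle. Both its extremes lay in KO IIAEK, and its IIAEK effect in wild type was 0.001 (SE 0.20). Nr1i2 (PXR) had 2.68, 2.69 and 1.96 in KO IIAEK, 2.46, 2.58 and 2.57 in KO vehicle, 2.63, 2.78 and 2.63 in WT IIAEK and 2.57, 2.54 and 2.69 in WT vehicle. It was even on 11 arrays, and KO IIAEK 3 alone was below 2.46. Nr1i3 (CAR) had 2.18, 2.43 and 1.42 in KO IIAEK, 2.50, 1.41 and 1.80 in KO vehicle, 2.53, 2.61 and 1.54 in WT IIAEK and 2.24, 2.20 and 1.95 in WT vehicle. On slide 2 it lay between 1.41 and 1.95 and on slide 1 between 2.18 and 2.61, without overlap. Its other probe gave 0.56 (SE 0.27) for IIAEK in wild type, against 0.098 (SE 0.35) for this one. The slides overlapped on that other probe, at -2.47 to -1.35 on slide 1 and -2.35 to -1.96 on slide 2.

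The P450s varied widely between arrays of the same group. Over the 10 tested P450 and reductase genes the median log2 fold change for IIAEK was -0.081 in knockout (3 above 0) and 0.67 in wild type (all 10 above 0). For knockout against wild type it was -0.23 under IIAEK (none above 0) and 0.54 under vehicle (9 above 0). No value passed the test over all arrays. For IIAEK in knockout, 9 of the 10 were above 0 within slide 1, and 9 were without KO IIAEK 3. In wild type the slide 2 values ran from -0.70 (Por) to 0.59 (Cyp2c55). For knockout against wild type under IIAEK, 8 were above 0 without KO IIAEK 3. Under vehicle, 5 were above 0 with marker scores as covariates. KO IIAEK 3 was the lowest array for 6 of the 10, and WT IIAEK 2 was the highest for 5.

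Cyp2c55, an intestinal P450 of the CYP2C family, ranged most among the tested members, over 3.00 log2 units (7.98-fold). It was at 2.30, 1.75 and 0.28 in KO IIAEK, 1.17, 2.28 and 1.40 in KO vehicle, 2.15, 3.24 and 0.83 in WT IIAEK and 0.99, 0.69 and 0.24 in WT vehicle. KO vehicle lay above WT vehicle, while WT IIAEK overlapped WT vehicle through its replicate on slide 2. For IIAEK in wild type the log2 fold change was 1.43 (SE 0.61, 95% interval 0.089 to 2.78, adjusted p 0.999, limma), and the other probe of the gene gave 1.44. Within slide 1 it was 1.85 and within slide 2 it was 0.59.

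Cyp3a11 and Cyp3a25 are members of the CYP3A family, the classical targets of PXR. Cyp3a11 read 6.13, 5.22 and 3.98 in KO IIAEK, 4.75, 5.90 and 4.82 in KO vehicle, 5.04, 6.02 and 4.75 in WT IIAEK and 4.68, 3.92 and 4.87 in WT vehicle. Cyp3a25 read 5.16, 4.61 and 2.90 in KO IIAEK, 3.99, 4.69 and 4.20 in KO vehicle, 4.56, 5.33 and 4.02 in WT IIAEK and 3.52, 3.55 and 4.19 in WT vehicle. In both genes KO IIAEK held the highest or near-highest array and also a very low one, and no pair of groups separated. Cyp3a13, another CYP3A enzyme, averaged 6.60 ± 0.29 in KO vehicle and 6.04 ± 0.24 in WT vehicle (SD, n = 3 each), a difference of 0.56 (SE 0.39, adjusted p 0.993, limma).

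Cyp2c65 and Cyp2c66, whose promoters are printed above, are neighbouring family members on chromosome 19. Cyp2c65 had 7.02, 6.45 and 5.22 in KO IIAEK, 6.36, 6.44 and 6.41 in KO vehicle, 6.42, 7.24 and 5.91 in WT IIAEK and 6.12, 5.77 and 5.68 in WT vehicle. Cyp2c66 had 6.82, 6.13 and 5.10 in KO IIAEK, 5.95, 6.27 and 6.19 in KO vehicle, 5.97, 6.89 and 5.69 in WT IIAEK and 5.71, 5.32 and 5.48 in WT vehicle. In both, KO vehicle lay above WT vehicle, by 0.54 (SE 0.42) and 0.63 (SE 0.40) on the log2 scale, with adjusted p 0.993 from limma. Near-identical members of the Cyp2c and Cyp3a families can bind each other's probes, and how far their probes share signal was not tested.

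Cyp2b10, a target of CAR, and Cyp2c29 had group means of 5.68 ± 0.02 to 6.19 ± 0.54 and 3.1 ± 0.12 to 3.78 ± 0.57 (SD, n = 3 each), both lowest in WT vehicle and highest in WT IIAEK. Cyp2d26, of the CYP2D family, was steady on its brightest probe, at 6.73, 6.87 and 6.77 in KO IIAEK, 6.90, 6.45 and 6.57 in KO vehicle, 7.14, 7.07 and 6.84 in WT IIAEK and 6.59, 6.61 and 7.05 in WT vehicle. Its averaged knockout effect was -0.17 (SE 0.12, adjusted p 0.999, limma), whereas its other probe gave 0.058. That other probe ranged from 2.81 to 4.01, both on WT vehicle arrays. Por, the reductase that passes electrons to all of these P450s, ranged from 4.39 to 5.49, both on WT vehicle arrays.

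Cyp1a1, the textbook target of the aryl hydrocarbon receptor, was not well above background on most arrays. It was at -6.59, -5.66 and -6.50 in KO IIAEK, -6.02, -2.07 and -2.26 in KO vehicle, -5.45, -1.88 and -6.62 in WT IIAEK and -6.47, -4.58 and -6.57 in WT vehicle. Only 4 arrays read it well above background: KO vehicle 2 and 3, WT IIAEK 2 and WT vehicle 2. No group had it well above background on all 3 arrays, so no test was made and no fold is given.

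**Figure D4:**
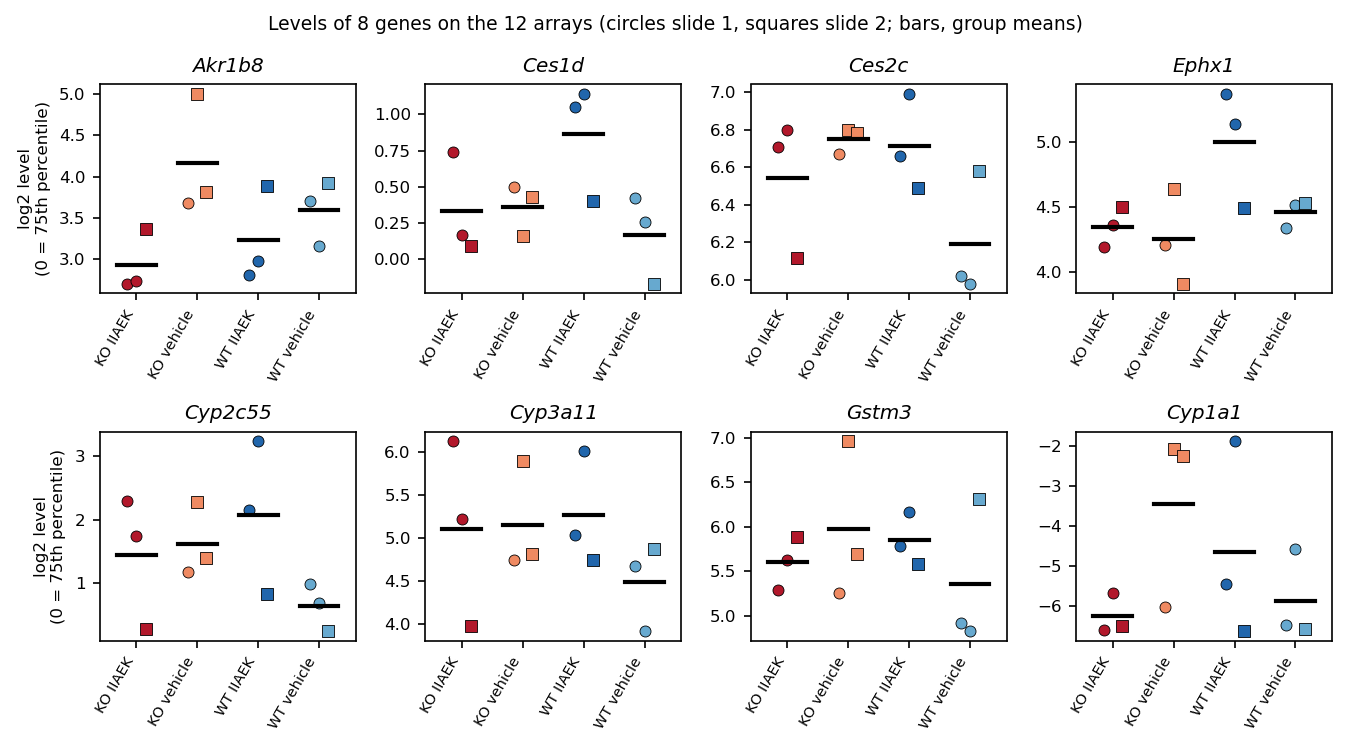
Log2 levels of 8 genes on each array by group, with circles for slide 1, squares for slide 2 and bars for group means; each panel has its own vertical axis. Akr1b8 in KO IIAEK (2.70 to 3.37) lies below KO vehicle (3.68 to 5.00), and Cyp1a1 is above -3 on 3 arrays.

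The plot of 8 genes shows their arrays singly. For Ces1d, Ces2c, Ephx1 and Cyp2c55 the slide 2 array of WT IIAEK lay below both slide 1 arrays of its group.

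All 6 carboxylesterases, which hydrolyse ester drugs and dietary esters, had a positive log2 fold change for IIAEK in wild type (median 0.46) and a negative one in knockout (median -0.20). Within slide 2 the value in wild type was below 0 for 5 of the 6, and within slide 1 the value in knockout was above 0 for 4. It was also above 0 for 4 in knockout without KO IIAEK 3. The IIAEK effect in knockout minus that in wild type had a median of -0.72 and was below 0 for all 6 within either slide; no gene passed the test. Ces2c, a carboxylesterase of the intestine and liver, stood at 6.71, 6.80 and 6.12 in KO IIAEK, 6.67, 6.80 and 6.78 in KO vehicle, 6.66, 6.99 and 6.49 in WT IIAEK and 6.02, 5.98 and 6.58 in WT vehicle. WT vehicle 1 and 2 and KO IIAEK 3 were low, and KO vehicle lay above WT vehicle. Its IIAEK effect in knockout minus that in wild type was -0.72 (SE 0.31, 95% interval -1.41 to -0.031, adjusted p 1, limma), and knockout minus wild type under vehicle was 0.55 (SE 0.22, adjusted p 0.993).

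Ces2a had 2.56, 2.36 and 1.80 in KO IIAEK, 2.37, 3.1 and 2.54 in KO vehicle, 2.73, 2.87 and 2.01 in WT IIAEK and 1.90, 1.91 and 2.45 in WT vehicle. Every pair of groups overlapped, and the IIAEK effect in knockout minus that in wild type was -0.88 (SE 0.41, adjusted p 1, limma). Within slide 1 its IIAEK effect in wild type was 0.89, while within slide 2 it was -0.44. Ces1d, which also acts as a triglyceride hydrolase, was at 0.74, 0.17 and 0.09 in KO IIAEK, 0.50, 0.16 and 0.43 in KO vehicle, 1.05, 1.14 and 0.40 in WT IIAEK and 0.42, 0.26 and -0.17 in WT vehicle. WT IIAEK 1 and 2 were its highest arrays, and the IIAEK effect in wild type was 0.69 (SE 0.25, 95% interval 0.15 to 1.23, adjusted p 0.999, limma).

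Ces1f was at 3.68, 3.95 and 3.08 in KO IIAEK, 3.84, 4.58 and 4.41 in KO vehicle, 4.01, 5.19 and 3.06 in WT IIAEK and 3.37, 3.57 and 4.41 in WT vehicle. Its IIAEK effect in knockout was -0.70 (SE 0.47, adjusted p 1, limma), with -0.021 within slide 1 and -1.41 within slide 2. On slide 2 the only KO IIAEK array was KO IIAEK 3. Ces1g ranged from -1.93 in WT IIAEK 3 to 0.10 in WT IIAEK 2. Ces2e lay between 6.74 and 7.84, with KO vehicle (7.28 to 7.44) above WT vehicle (7.17 to 7.20). Carboxylesterases form a tandem family of related genes, and how far a probe may also read a neighbour was not tested.

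Akr1b8, an aldo-keto reductase that clears reactive aldehydes, was with Gclc 1 of the 2 members below 0 for IIAEK in wild type. It was at 2.70, 2.73 and 3.37 in KO IIAEK, 3.68, 5.00 and 3.81 in KO vehicle, 2.81, 2.98 and 3.89 in WT IIAEK and 3.70, 3.16 and 3.92 in WT vehicle. All 3 KO IIAEK mice lay below all 3 KO vehicle mice, whereas the wild-type groups overlapped. The log2 fold change for IIAEK was -1.23 (SE 0.39, 95% interval -2.08 to -0.38, adjusted p 1, limma) in knockout and -0.36 (SE 0.39) in wild type. The value in knockout was -0.96 within slide 1 and -1.03 within slide 2, so that it kept its sign on both. Averaged over genotypes it was -0.80 (SE 0.27, adjusted p 1, limma).

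Ephx1, the microsomal epoxide hydrolase, was at 4.19, 4.36 and 4.50 in KO IIAEK, 4.21, 4.64 and 3.91 in KO vehicle, 5.37, 5.14 and 4.49 in WT IIAEK and 4.34, 4.52 and 4.53 in WT vehicle. WT IIAEK 1 and 2 stood above all other arrays. Under IIAEK the knockout effect was -0.65 (SE 0.24, 95% interval -1.17 to -0.14, adjusted p 1, limma), but -0.99 within slide 1 and 0.016 within slide 2. Ephx2, the soluble epoxide hydrolase, ranged from 6.42 in KO IIAEK 3 to 7.60 in WT IIAEK 2. Adh1, an alcohol dehydrogenase that also oxidises retinol, ranged from 6.30 in KO IIAEK 1 to 7.33 in WT IIAEK 1.

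The conjugating enzymes Ugt2b34 (a glucuronosyltransferase), Sult1b1 and Sult1d1 (cytosolic sulfotransferases) were all lowest on KO IIAEK 3. Sult1d1 had 6.30, 5.46 and 4.19 in KO IIAEK, 5.12, 5.18 and 5.39 in KO vehicle, 4.77, 6.09 and 5.02 in WT IIAEK and 4.85, 4.72 and 4.79 in WT vehicle. The KO IIAEK arrays spanned 2.12 log2 units, the whole range of the gene, while the vehicle groups did not overlap (a difference of 0.445, knockout minus wild type). On its other probe they did overlap, at 4.86, 4.49 and 4.80 in KO vehicle and 4.77, 4.59 and 4.28 in WT vehicle, with a difference of 0.17. The other probes of Sult1b1 and Sult1d1 had their lowest arrays in KO IIAEK too, at 0.95 and 3.71. Ugt2b34 averaged 6.75 ± 0.49 in WT IIAEK and 6.16 ± 0.06 in WT vehicle (SD, n = 3 each) with no overlap, a difference of 0.59 (SE 0.32, adjusted p 0.999, limma). Sult1b1 ranged from 5.48 to 7.36, both in KO IIAEK.

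None of the 6 tested glutathione transferases passed the test. Their median for IIAEK was -0.10 in knockout and 0.37 in wild type. On slide 1 the values in knockout ran from -0.36 (Gsta4) to 0.49 (Mgst1). On slide 2 those in wild type ran from -0.73 (Gstm3) to 0.12 (Mgst3). Mgst1, a microsomal transferase, read 6.49, 5.78 and 4.77 in KO IIAEK, 5.65, 5.64 and 5.81 in KO vehicle, 5.74, 6.44 and 5.26 in WT IIAEK and 5.28, 5.30 and 5.56 in WT vehicle. Like Sult1d1 it was highest on KO IIAEK 1, lowest on KO IIAEK 3, and higher in KO vehicle than in WT vehicle on every array. Its other probe had the vehicle groups touching at 4.83, with a difference of 0.25, against 0.32 for this one. Gstm3, a cytosolic mu-class enzyme, had 5.29, 5.63 and 5.89 in KO IIAEK, 5.26, 6.96 and 5.70 in KO vehicle, 5.79, 6.17 and 5.58 in WT IIAEK and 4.92, 4.83 and 6.31 in WT vehicle. It was high on KO vehicle 2 and WT vehicle 3, and Gstm1, of the same class, was highest on KO vehicle 2 (4.83) and lowest on WT vehicle 1 (2.82). Mu-class genes are closely related, and how far their probes may share signal was not tested.

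Gsta4, which conjugates the lipid peroxidation product 4-hydroxynonenal, was at 4.20, 3.93 and 3.89 in KO IIAEK, 4.43, 4.09 and 3.66 in KO vehicle, 4.24, 4.24 and 4.28 in WT IIAEK and 3.94, 4.24 and 4.23 in WT vehicle. The WT IIAEK arrays were within 0.02 (SD) of their mean and above all KO IIAEK arrays, and the knockout effect there was -0.25 (SE 0.19, adjusted p 1, limma). Mgst3 stood at 6.14, 5.97 and 5.84 in KO IIAEK, 5.81, 6.26 and 6.33 in KO vehicle, 5.66, 6.07 and 6.24 in WT IIAEK and 5.50, 5.61 and 6.12 in WT vehicle. All its groups overlapped. Gstp1, whose promoter carries TGAGTCAGC, averaged 2.99 ± 0.23 in KO IIAEK, 3.00 ± 0.34 in KO vehicle, 3.04 ± 0.23 in WT IIAEK and 2.73 ± 0.47 in WT vehicle (SD, n = 3 each).

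None of the 5 quinone, glutathione and thioredoxin genes, classical NRF2 targets, passed the test. Their median for IIAEK was -0.20 in knockout and 0.11 in wild type. On slide 1 the values in knockout ran from -0.012 (Nqo1) to 0.072 (Gclm). On slide 2 those in wild type ran from -0.59 (Gclc) to 0.20 (Nqo1). Nqo1, the quinone reductase used as a marker of NRF2 activity, had 1.56, 1.32 and 1.27 in KO IIAEK, 1.45, 1.89 and 1.50 in KO vehicle, 1.36, 2.02 and 1.91 in WT IIAEK and 1.22, 1.18 and 1.71 in WT vehicle. Its groups overlapped in every comparison, and the difference of the IIAEK effect was -0.62 (SE 0.30, adjusted p 1, limma). Gclm, the modifier subunit of the enzyme that starts glutathione synthesis, was at 3.07, 3.09 and 2.93 in KO IIAEK, 3.00, 3.47 and 3.22 in KO vehicle, 3.38, 3.44 and 3.17 in WT IIAEK and 2.90, 2.91 and 3.36 in WT vehicle. KO IIAEK lay below WT IIAEK, with a knockout effect of -0.305 on the log2 scale (SE 0.17, adjusted p 1, limma). Gclc, the catalytic subunit, was between 1.82 and 2.77, highest on KO vehicle 2 and next on WT vehicle 3 (2.64).

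Srxn1, whose promoter carries TGAGTCAGC, had 4.81, 4.89 and 4.02 in KO IIAEK, 4.85, 5.15 and 4.92 in KO vehicle, 4.53, 4.91 and 4.67 in WT IIAEK and 4.63, 4.67 and 4.48 in WT vehicle. KO vehicle lay above WT vehicle, by 0.38 (SE 0.21, adjusted p 0.993, limma), and KO IIAEK 3 was the lowest array. Its IIAEK effect in knockout was -0.40 (SE 0.21, adjusted p 1, limma), and -0.12 without that array. Txnrd1, cytosolic thioredoxin reductase, was the steadiest tested member, between 4.20 and 4.63 on the 12 arrays (SD 0.14). Its other probe ranged from 2.53 to 3.28.

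The 4 efflux pumps had a median for IIAEK of -0.20 in knockout and 0.30 in wild type, and none passed the test. On slide 1 their values in knockout were all above 0, from 0.039 (Abcc3) to 0.20 (Abcb1a). On slide 2 those in wild type ran from -1.83 (Abcb1a) to 0.29 (Abcg2). Abcc2 (MRP2), which exports conjugates into the lumen, read 2.60, 2.74 and 2.46 in KO IIAEK, 2.61, 2.95 and 2.82 in KO vehicle, 3.13, 3.37 and 2.70 in WT IIAEK and 2.53, 2.46 and 3.17 in WT vehicle. WT IIAEK 1 and 2 and WT vehicle 3 were high, and the knockout effect under IIAEK was -0.47 (SE 0.22, adjusted p 1, limma). Abcc3 (MRP3), which exports towards the blood, was at 4.09, 3.93 and 4.27 in KO IIAEK, 3.97, 4.43 and 4.49 in KO vehicle, 4.12, 4.30 and 4.33 in WT IIAEK and 4.03, 3.87 and 4.08 in WT vehicle. WT IIAEK lay above WT vehicle by 0.25 (SE 0.16), but the other probe of Abcc3 gave -0.14 (SE 0.21).

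Abcg2 (BCRP), an apical pump of many dietary compounds, was at 5.47, 5.19 and 4.15 in KO IIAEK, 5.20, 5.05 and 5.18 in KO vehicle, 4.97, 5.80 and 4.82 in WT IIAEK and 4.81, 4.79 and 4.53 in WT vehicle. Both KO vehicle and WT IIAEK lay above WT vehicle, by 0.44 (SE 0.32) and 0.49 (SE 0.32), with adjusted p 0.993 and 0.999 from limma. Abcb1a, a P-glycoprotein gene, ranged from 1.57 on WT vehicle 2 to 3.75 on WT vehicle 3, with 3.44 on KO vehicle 2 next to it. WT vehicle 3 also had the highest mean of 6 hepatocyte markers (0.35, against -1.96 to -1.12 on the others), with Alb at 1.94, and its part in the Abcb1a level was not tested.

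Other genes of the same pathways were listed beside the members, and none of them was called in either averaged comparison (percent called 0 and 0.0192 over all features, limma). Of 47 other phase 1 enzymes 40 were measured, with a median averaged IIAEK effect of 0.20 and a median averaged knockout effect of 0.016. The medians were 0.080 and 0.003 for 29 of 32 other phase 2 enzymes and 0.043 and 0.058 for 26 of 27 other NRF2 targets. They were 0.010 and -0.061 for all 22 other receptors and partners, and 0.063 and -0.054 for all 12 other drug transporters. Akr1c14 and Cyp2c38 led the phase 1 enzymes under IIAEK, at 0.71 (SE 0.27) and 0.60 (SE 0.28), and Ces2b and Cyp1b1 led them for knockout, at 0.22 (SE 0.14) and 0.20 (SE 0.15).

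Among phase 2 enzymes, Gstt3 was at 0.18 (SE 0.11) and Ugt2b36 at 0.44 (SE 0.30) under IIAEK, and Ugt1a10 at 0.43 (SE 0.16) and Gstt2 at 0.23 (SE 0.10) for knockout. Of the NRF2 targets, Cat (catalase) was at 0.34 (SE 0.16) under IIAEK, and Htatip2 at 0.24 (SE 0.13) and Me1 (malic enzyme) at -0.31 (SE 0.18) for knockout. The receptors gave Maff at -0.39 (SE 0.20) and Ppargc1a at 0.32 (SE 0.20) under IIAEK, and Ppara at -0.42 (SE 0.15) and Bach1, a repressor of NRF2 targets, at -0.23 (SE 0.11) for knockout. The transporters gave Slc22a4 at 0.25 (SE 0.19) and Slc15a1, the peptide transporter PEPT1, at 0.48 (SE 0.42) under IIAEK, and Abcc5 at -0.37 (SE 0.14) and Abcc4 at 0.24 (SE 0.15) for knockout. The adjusted p of each of these was 0.999 or 1 (limma).

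Gpx2, the gastrointestinal glutathione peroxidase and an NRF2 target, had the smallest p of the other NRF2 genes under IIAEK. It was at 5.18, 4.79 and 5.47 in KO IIAEK, 6.0, 6.66 and 5.70 in KO vehicle, 4.86, 4.75 and 5.53 in WT IIAEK and 5.69, 5.53 and 5.98 in WT vehicle. KO IIAEK lay below KO vehicle on every array, and WT IIAEK touched WT vehicle at 5.53. The averaged log2 fold change was -0.83 (SE 0.20, unadjusted p 0.00162, adjusted p 1, limma), with -0.97 (SE 0.28) in knockout and -0.69 (SE 0.28) in wild type. As in Akr1b8, both genotypes were below vehicle on average, and neither gene passed the threshold.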

How the data were processed

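The authors' deposited scanner files hold, per the file headers, a background-subtracted processed intensity for each spot, made with Feature Extraction 10.7.3.1 and not scaled between arrays. The authors' deposited value table holds log2 values whose making is not stated. It correlated at 0.99999 or more with log2 processed intensity less the 75th percentile, with every probe's median set to 0, so its scale and direction are those of the intensities, and a level cannot be read from it. Its column medians were 0.119, -0.039 and 0.082 in KO IIAEK, -0.054, -0.093 and 0.090 in KO vehicle, -0.061, 0.036 and 0.065 in WT IIAEK and -0.069, -0.077 and 0.126 in WT vehicle.

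Control spots (3671 of 62976) and spots marked as outliers by the scanner software were dropped, at a loss of 22 of 56605 probes. Replicate spots were averaged on log2, and each array's 75th percentile (195.3 to 465.4 intensity units) was subtracted. The share of probes well above background ran from 55.94% to 64.01%, and no probe was saturated. Accessions were matched without versions to RefSeq genes of GRCm38.p6, naming 32978 of 56583 probes for 22905 genes; the headers name an older build, so coordinates are given only for the RefSeq promoter windows. Probes were tested if well above background throughout some group of 3 arrays, and the brightest stood for a gene, leaving 26107 features. Another probe of 11 members also passed.

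Group means were estimated over the 12 arrays in limma 3.58.1 (R 4.3.3) by lmFit and a trended eBayes, with 7 two-sided contrasts adjusted by Benjamini-Hochberg; the script was tested on simulated data. The median standard error was 0.243 between groups, 0.344 for the difference and 0.172 for averaged contrasts, and 3 arrays a group limit the precision. Members and lists were chosen with earlier results of these data known. Levels on every array are given for the 5 members with the smallest p in each contrast, for the 5 regulators and for some others chosen after their values were seen (Cyp3a11, Cyp3a25, Cyp2c65, Cyp2c66, Cyp1a1, Sult1d1, Mgst1, Gstm3, Abcg2 and Gpx2). Of each pathway list the genes with the smallest p are named. Alternatives were normexp background correction, quantile normalization, no filter, the mean of a gene's probes, no trend, the authors' table, slide as a block, each slide alone, stomach and pancreas marker scores as covariates, a replicate block and leaving out each array.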

Additional observations from a re-analysis of the deposited data

Results flagged for a closer look

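Cyp1a1 was left out of the tests because no group had it well above background on all 3 arrays, yet 3 arrays outside WT vehicle read far above the highest WT vehicle array (-4.58). Its level was -2.07 on KO vehicle 2, -2.26 on KO vehicle 3 and -1.88 on WT IIAEK 2. The other arrays of those groups read -6.02 in KO vehicle and -5.45 and -6.62 in WT IIAEK, and KO IIAEK read -6.59 to -5.66. The 3 high arrays lay on both slides.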

How the results depend on the processing

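No member was called under normexp, quantile normalization, no filter, the mean of a gene's probes, no trend, the authors' table, slide as a block, marker scores, a replicate block or the loss of any array, in any of the 7 contrasts. Within single slides, groups with 1 array are assumed to vary like the others, and slide 2 leaves 1 residual degree of freedom. The members that passed there are given by effect size on slides 1 and 2. For IIAEK in wild type, Ces2a (passing on slide 1) was 0.892 and -0.443. For IIAEK in knockout, Ces1f was -0.021 and -1.411 and Cyp3a25 0.893 and -1.542, both passing on slide 2. Averaged over genotypes, Ces1f (passing on slide 2) was 0.555 and -1.383. Calls among all 26107 features in the same fits are given in the next paragraph. On slides 1 and 2 the members' median was 0.181 and -0.618 for IIAEK in knockout, 0.642 and -0.071 in wild type and 0.410 and -0.366 averaged; with marker scores it was -0.029 for knockout under vehicle. Within slide 1 the sign was opposite to that over all arrays for 27 of 43 members for IIAEK in knockout, 1 in wild type and 8 averaged, and within slide 2 for 12, 24 and 29. For knockout it was opposite for 9 under IIAEK, 6 under vehicle and 9 averaged on slide 1, and for 12, 9 and 23 on slide 2; for the difference, for 4 and 12. Among the 5 members with the smallest p of each contrast alone, these were, on slide 1, Abcc3 0.039, Ces2a 0.093 and Srxn1 0.006 (IIAEK in knockout) and Gsta4 0.083 (averaged knockout). On slide 2 they were Ces2c -0.097 and Ephx1 -0.040 (IIAEK in wild type), Ahr -0.078 and Nfe2l2 -0.082 (averaged IIAEK), Ephx1 0.016 (knockout under IIAEK) and Mgst3 -0.115 (averaged knockout).

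Over all features, the 2 calls for knockout under IIAEK became 8 on slide 1, 14 on slide 2 and 5 with marker scores, and 2 to 4 without single arrays (4 without KO IIAEK 3). The 2 under vehicle became 4 and 80 on slides 1 and 2, and 2 to 18 without single arrays (18 without WT vehicle 3). The 5 for averaged knockout became 3 with normexp, 12 and 49 on slides 1 and 2, 8 with slide as a block, no trend or the authors' table, and 2 to 10 without single arrays. From 0, IIAEK gave 58 and 255 calls in knockout on slides 1 and 2 and 0 to 0 without single arrays, 257 in wild type on slide 1 and 0 to 17 without single arrays (17 without WT vehicle 3), and 250 and 58 averaged. The difference gave 35 on slide 2 and 0 to 1 without single arrays. The cause of these changes was not tested. Without single arrays the members' medians ran from -0.234 to 0.019 for IIAEK in knockout, 0.210 to 0.529 in wild type and 0.035 to 0.228 averaged. They ran from -0.627 to -0.291 for the difference, 0.187 to 0.346 for knockout under vehicle, -0.412 to 0.006 under IIAEK and -0.047 to 0.114 averaged.

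Whether the replicate numbers pair the samples cannot be told from these values, because numbers and slides overlap. The 18 same-numbered pairs correlated at -0.252 to 0.699 (median 0.143), 11 of them above 0.1. Of the 36 pairs of different numbers (median -0.128), 12 lay above 0.1. By slide, 19 of 27 pairs on the same slide lay above 0.1, against 4 of 27 on different slides. With the replicate block the median for IIAEK in wild type was 0.346 and no member was called.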
